A study of Mus musculus with 6 samples.

Results

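The genes described here are 10 genes of the core autophagy machinery, taken as a list: Ulk1, Becn1, Pik3c3, Atg14, Uvrag, Wipi1, Atg7, Atg5, Map1lc3b and Gabarapl1. All 10 had a probe whose accession named the gene, with 13 probes in all among 39429 on the array, and all 10 were well above background on all 6 arrays and entered the fit over 21207 genes. Single-colour Agilent arrays read kidney RNA of 3 USP10 KO and 3 USP10 WT neonates, 1 array per neonate, collected about 6 hours after birth. All 6 are labelled male. The strain, the deleted part of Usp10 and the way the allele was made are not given in the sources used here. The list was drawn up because Usp10, a deubiquitinating enzyme, is reported to remove ubiquitin from the Beclin 1 protein. The arrays read transcripts, not proteins, and the comparison asks whether the transcripts of this machinery differed between the genotypes.

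Autophagy delivers parts of the cytoplasm to lysosomes. The ULK1 kinase starts it, the lipid kinase VPS34 with its partner Beclin 1 then makes phosphatidylinositol 3-phosphate on a forming membrane, WIPI proteins read that lipid, and a chain of conjugating enzymes fixes proteins of the ATG8 family (LC3 and GABARAP) to the membrane. Tubule cells and podocytes of the kidney depend on this pathway, and in mice autophagy rises in many tissues soon after birth, when the supply of nutrients from the placenta ends. Much of its control acts on the proteins by phosphorylation and ubiquitin, while FOXO and TFEB transcription factors act on the transcripts.

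Several facts about the arrays touch every value below. The probe for Usp10 stood at 3.64, 3.37 and 3.56 on the KO arrays, against 3.01, 3.13 and 2.95 on the WT arrays (log2 intensity minus the array's 75th percentile, the scale of all levels here). It was thus above WT on every array labelled KO (log2 difference 0.49 ± 0.16, SE, limma adjusted p = 0.416), and groups are named by their labels. Where this probe lies relative to the deleted part is not known here, so its values do not show a loss of Usp10. The Y-linked gene Eif2s3y stood at 1.14, -8.11 and 1.83 on WT replicates 1, 2 and 3. Xist, which female cells express, was well above background on WT replicates 1 and 2 (-0.62 and 0.43), so 2 of the WT arrays went against the label male. They did so in unlike ways: WT replicate 2 carried Xist without Eif2s3y, while WT replicate 1 carried both. Why WT replicate 1 carried both was not tested, and 1 array per neonate rests on the design text. Differences of the 10 genes against WT replicate 3 alone are therefore given as well, a comparison that takes the spread of a lone WT array from the KO arrays. The arrays were scanned in 2 runs by their recorded scan time. Scan 1 held KO replicates 1 and 2 and WT replicates 2 and 3, and scan 2 held KO replicate 3 and WT replicate 1. All 12 kidney epithelium markers were measured, and none passed an unadjusted p of 0.05. Of 7 measured macrophage markers 4 had an unadjusted p under 0.05, all lower in KO, where 10.4% of all genes had such a p in either direction. The rest did not reach that p, with log2 differences of -0.64 for Adgre1, -0.11 for Csf1r and 0.018 for C1qb. The value of C1qb was unlike those of C1qa (-0.77) and C1qc (-0.87), so the list was not uniform. The mean level of the 7 lay between -2.28 and -2.06 on the KO arrays, against -1.43 to -1.40 on the WT arrays. Cx3cr1, a receptor of kidney macrophages, differed by -1.58 ± 0.21 (SE, limma adjusted p = 0.0604) and passed with scan as a block (adjusted p = 0.0349). The part of these marker differences in the values below was not tested. In tissue RNA, fewer cells of a type and less RNA per cell cannot be told apart.

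None of the 10 transcripts passed the limma test over all genes (threshold 0.05, adjusted p between 0.423 and 0.979), which 0.0802% of all genes did. With scan as a block none passed either, where 0.292% of all genes did. At an unadjusted p under 0.05 there was 1 of the 10, Gabarapl1, where 10.4% of all genes had such a p. With scan as a block it was 3 of the 10, Gabarapl1, Uvrag and Ulk1, where 17.7% of all genes had one. The KO and WT arrays did not overlap for 3 of the 10, where 18.2% of all genes did not overlap. Gabarapl1 and Ulk1 lay above WT, as did 10.1% of all genes, and Uvrag lay below, as did 8.1%. The median log2 difference of the 10, KO minus WT, was 0.074, beside 0.028 over all genes tested. With only 10 members these counts stand close to those of the whole array. Without WT replicate 1 the median was -0.0042, and against WT replicate 3 alone it was 0.0063. With 3 arrays a group the exact permutation test of a single value could not go below p = 0.1, and the number of arrays limits the precision of every value.

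**Figure D1:**
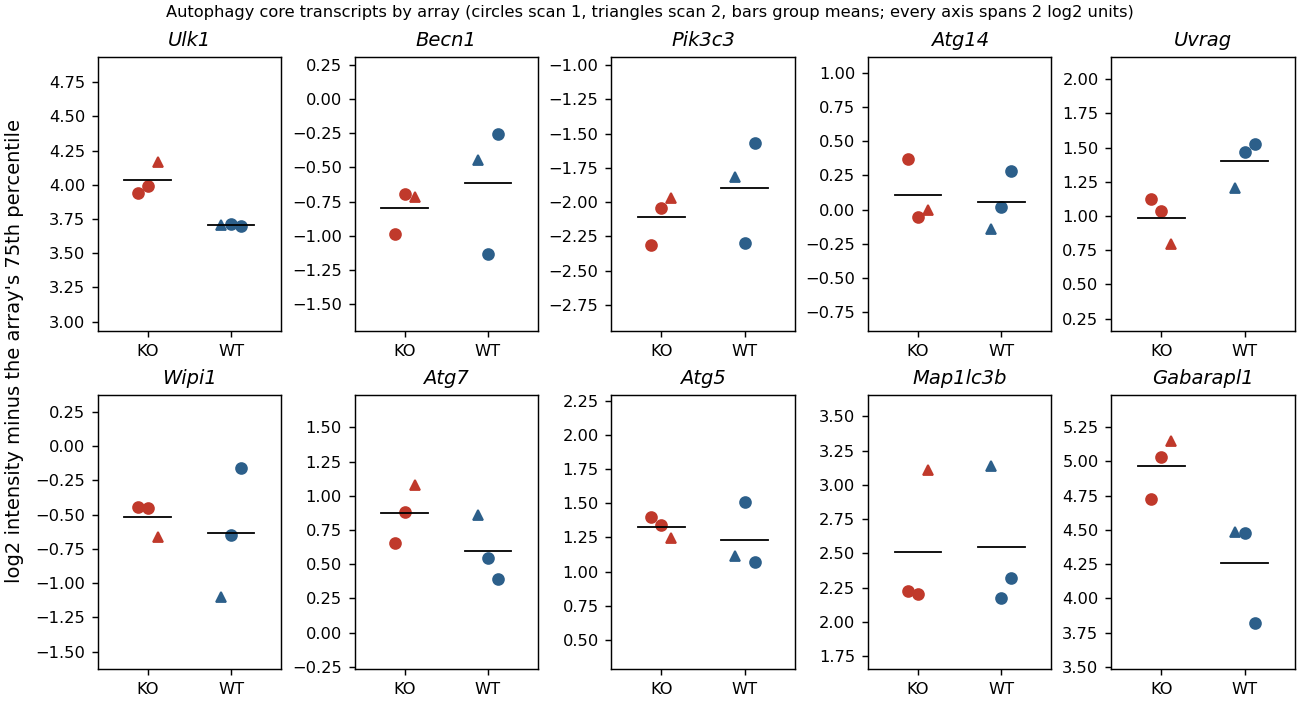
Level of each of the 10 transcripts on each array, as log2 intensity minus the array's 75th percentile, with KO left of WT. Each point is 1 array, circles for scan 1 and triangles for scan 2, bars are group means, and every vertical axis spans the same range. The groups do not overlap for Gabarapl1, Ulk1 and Uvrag, and Map1lc3b separates by scan.

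Ulk1, the kinase that starts autophagosome formation and that AMPK and mTOR regulate in opposite ways, stood at 3.94, 3.99 and 4.17 on the KO arrays, against 3.71, 3.71 and 3.70 on the WT arrays. The KO arrays all lay above the WT arrays, which were nearly alike. Its level was 1.26-fold that of WT, a log2 difference of 0.33 ± 0.15 (SE, 95% interval -0.031 to 0.69) that did not pass (limma adjusted p = 0.493). The difference was 0.26 within scan 1, 0.46 within scan 2 and 0.34 against WT replicate 3 alone. It was 0.21 after quantile normalisation and 0.20 after normexp background correction with quantile normalisation, so its size depended on the scaling. With scan as a block the unadjusted p was 0.0399 and the adjusted p 0.270. The promoter of Ulk1 is shown because its groups did not overlap, from RefSeq on GRCm38.p6 at chr5:110810082-110810201, minus strand, the last 120 bases before the annotated start, printed 5′ to 3′ on the strand of the gene.
Ulk1: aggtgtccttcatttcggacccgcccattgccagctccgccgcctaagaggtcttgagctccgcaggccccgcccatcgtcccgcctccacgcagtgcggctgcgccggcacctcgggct

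The partners of ULK1 were read from a list of its initiation complex, all 5 members measured, of which none passed over all genes. Rb1cc1, which encodes the scaffold FIP200, stood at 0.90, 1.14 and 1.15 on the KO arrays, against 0.63, 0.76 and 0.13 on the WT arrays. Its groups did not overlap either, with a log2 difference of 0.55 ± 0.21 (SE, limma unadjusted p = 0.0330, adjusted p = 0.458). With Ulk1, 2 of the 5 lay above WT with no overlap and 0 below, where 10.1% and 8.1% of all genes did. Atg13, the subunit that links ULK1 to the scaffold, differed by 0.49 ± 0.27 (adjusted p = 0.536), while Ulk2, the related kinase, differed by -0.25 ± 0.19 (adjusted p = 0.620). The median of the 5 was 0.33, with 0.26 within scan 1 and 0.46 within scan 2, beside 0.028 over all genes. It was 0.21 after quantile normalisation and 0.20 when the probes of each gene were averaged. A control list of housekeeping genes, 9 of 10 measured, had a median of 0.26, with 5 differences positive and 4 negative, from -0.50 to 0.36. A median near that of the ULK1 list thus also stood in a list not chosen for autophagy.

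Becn1, which encodes Beclin 1, the regulatory subunit of the VPS34 complexes, stood at -0.98, -0.70 and -0.71 on the KO arrays, against -0.44, -1.13 and -0.25 on the WT arrays. All KO arrays lay within the range of the WT arrays, whose lowest was WT replicate 2. The log2 difference was -0.19 ± 0.25 (SE, 95% interval -0.78 to 0.40, limma adjusted p = 0.784). The interval is wide, so the arrays do not show that the transcript was unchanged. It was -0.15 within scan 1, -0.27 within scan 2 and -0.54 against WT replicate 3 alone (adjusted p = 0.534). Leaving out WT replicate 3 gave -0.011 and leaving out WT replicate 2 gave -0.45, so the size rested on which WT arrays were kept.

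Pik3c3, the catalytic subunit VPS34, stood at -2.31, -2.04 and -1.97 on the KO arrays, against -1.81, -2.30 and -1.57 on the WT arrays. Again the groups overlapped and WT replicate 2 was the lowest WT array. The log2 difference was -0.21 ± 0.23 (SE, 95% interval -0.75 to 0.32, limma adjusted p = 0.725), and -0.54 against WT replicate 3 alone. Without WT replicate 3 it was -0.051, without KO replicate 1 it was -0.11 and without WT replicate 2 it was -0.42, so it rested on single arrays as that of Becn1 did. A dimmer probe of the same transcript, also well above background on all 6 arrays, stood at -2.78, -2.56 and -2.60 on the KO arrays, against -2.55, -2.86 and -2.46 on the WT arrays. That probe gave a log2 difference of -0.024, with WT replicate 2 again the lowest WT array.

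Atg14, the subunit that places VPS34 at sites where autophagosomes form, stood at 0.37, -0.054 and -4.09e-05 on the KO arrays, against -0.14, 0.020 and 0.28 on the WT arrays. The groups overlapped fully, with a log2 difference of 0.049 ± 0.20 (SE, 95% interval -0.41 to 0.51, limma adjusted p = 0.936). Against WT replicate 3 alone the difference was -0.18, and without KO replicate 1 it was -0.082. The Atg14 promoter holds the E-box CACGTG, which TFEB and other basic helix-loop-helix factors read, across its annotated start. It is shown from position -36 to 24 relative to the start base, taken as 0, at chr14:47568410-47568470 on the minus strand (RefSeq, GRCm38.p6), with the E-box in capitals.
Atg14: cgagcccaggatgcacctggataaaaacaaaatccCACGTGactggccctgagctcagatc

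Uvrag, which takes the place of Atg14 in a second VPS34 complex that acts on endosomes and on autophagosome maturation, was the one member whose KO arrays all lay below WT. It stood at 1.13, 1.03 and 0.80 on the KO arrays, against 1.20, 1.47 and 1.53 on the WT arrays. KO replicate 1 and WT replicate 1 were the closest pair across the groups. The log2 difference was -0.41 ± 0.18 (SE, 95% interval -0.83 to 0.0017), a level 1.33-fold lower than in WT that did not pass (limma unadjusted p = 0.0507, adjusted p = 0.481). It was -0.42 within scan 1, -0.41 within scan 2 and -0.54 against WT replicate 3 alone, and with scan as a block the unadjusted p was 0.0141 and the adjusted p 0.231. No alternative moved it past the threshold, with differences between -0.54 and -0.32 over 19 settings. Its promoter is shown for the same reason as that of Ulk1, the last 120 bases before the start at chr7:99141145-99141264 on the minus strand (RefSeq, GRCm38.p6).
Uvrag: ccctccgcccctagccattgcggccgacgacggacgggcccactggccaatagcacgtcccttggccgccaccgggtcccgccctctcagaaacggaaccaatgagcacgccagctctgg

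The wider list of VPS34 complex genes had 9 of 10 members measured, with Rubcnl not well above background on any array. None passed and none had an unadjusted p under 0.05, and the median log2 difference was -0.11, with -0.084 within scan 1 and -0.15 within scan 2. It was -0.033 without WT replicate 3 and -0.19 without either WT replicate 2 or KO replicate 3. Nrbf2, a subunit that binds Atg14, was the other gene of this list whose groups did not overlap, with -0.26 ± 0.16 (SE, limma adjusted p = 0.566). With Uvrag, 2 of the 9 thus lay below WT with no overlap and 0 above, where 8.1% and 10.1% of all genes did. Sh3glb1, a membrane-bending partner of Uvrag, differed by 0.17 ± 0.17 (adjusted p = 0.704).

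Wipi1, which binds phosphatidylinositol 3-phosphate on the forming membrane, stood at -0.44, -0.45 and -0.66 on the KO arrays, against -1.10, -0.65 and -0.16 on the WT arrays. The WT arrays were spread on both sides of the KO arrays. The log2 difference was 0.12 ± 0.25 (SE, 95% interval -0.48 to 0.71, limma adjusted p = 0.873). It was the one member whose sign differed between the scans, -0.045 within scan 1 and 0.44 within scan 2, and against WT replicate 3 alone it was -0.36. For 9 of the 10 members the sign was the same within both scans, where 83.7% of all genes had the same sign. A dimmer Wipi1 probe was well above background on the 4 arrays of scan 1 and on neither array of scan 2. It stood at -4.11 and -4.31 on KO replicates 1 and 2, against -4.14 and -4.16 on WT replicates 2 and 3.

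**Figure D2:**
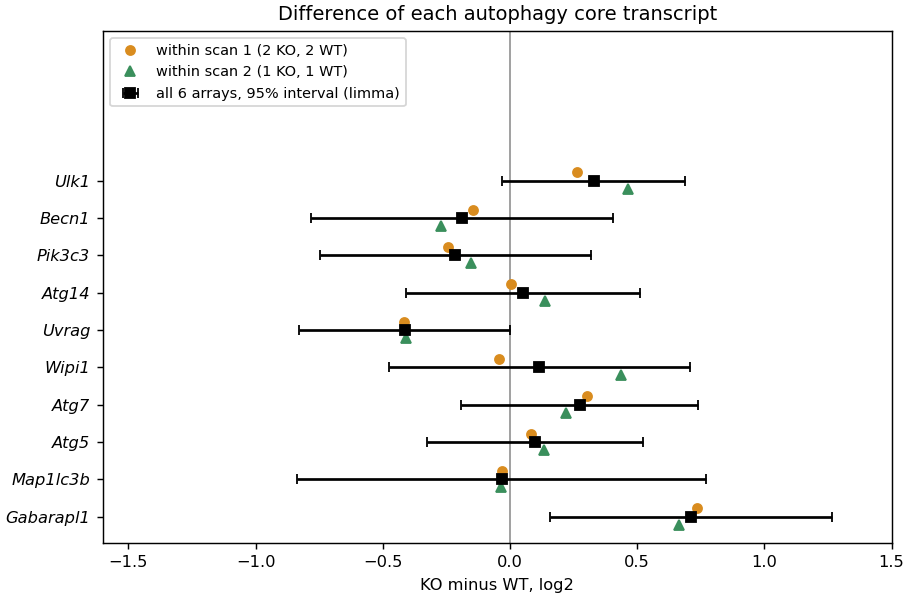
Log2 difference, KO minus WT, of each of the 10 transcripts. Squares with bars are the fitted difference and its 95% interval over all 6 arrays, circles the difference within scan 1 and triangles within scan 2. For 9 of the 10 the interval holds 0, and that of Gabarapl1 runs from 0.16 to 1.27.

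Atg7, the E1-like enzyme that activates both ATG12 and the ATG8 proteins, stood at 0.66, 0.88 and 1.08 on the KO arrays, against 0.86, 0.54 and 0.39 on the WT arrays. The groups overlapped through KO replicate 1 and WT replicate 1. The log2 difference was 0.27 ± 0.20 (SE, 95% interval -0.19 to 0.74, limma adjusted p = 0.611), with 0.30 within scan 1, 0.22 within scan 2 and 0.48 against WT replicate 3 alone. Without KO replicate 3 or WT replicate 3 it was 0.17. A second Atg7 probe was well above background on WT replicate 3 alone and gives no comparison. Atg5, which is joined to ATG12 and helps to fix ATG8 proteins to the membrane, stood at 1.40, 1.34 and 1.24 on the KO arrays, against 1.11, 1.51 and 1.07 on the WT arrays. The KO arrays lay within the WT range, and the log2 difference was 0.098 ± 0.18 (SE, 95% interval -0.32 to 0.52, limma adjusted p = 0.849). It was 0.26 against WT replicate 3 alone, 0.24 without WT replicate 2, 0.064 without KO replicate 1, 0.039 without WT replicate 1 and 0.018 without WT replicate 3, so its size rested on single arrays.
The promoters of both genes hold the E-box, like that of Atg14, and are shown with it in capitals. For Atg7 the stretch runs from position -167 to -92 at chr6:114670929-114671004, and for Atg5 from -49 to 24 at chr10:44268290-44268363, both on the plus strand (RefSeq, GRCm38.p6).
Atg7: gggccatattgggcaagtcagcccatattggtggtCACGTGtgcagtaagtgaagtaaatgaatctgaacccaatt
Atg5: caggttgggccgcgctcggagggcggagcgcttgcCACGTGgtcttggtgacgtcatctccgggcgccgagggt

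The table of promoters held 8 of the 10 members, each as 250 bases before and 50 after the annotated start, with Becn1 and Pik3c3 not in it. The E-box, which reads the same on both strands, was in the windows of 3 of these 8, Atg14, Atg5 and Atg7, and in 7.15% of all 32851 windows. The forkhead motif GTAAACA, which FOXO factors read, was searched on both strands and was in none of the 8 and in 3.65% of all windows. The E-box began at position -1 in Atg14, -14 in Atg5 and -132 in Atg7. None of these 3 genes passed the test, and the 3 whose groups did not overlap held neither motif in these windows, which says only that those letters are not there.

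The conjugation list had 10 of 11 members measured. Atg4a was left out because it was well above background on KO replicates 1 and 2 and WT replicate 2 alone. None of the 10 passed or had an unadjusted p under 0.05, 5 differences were positive and 5 negative, and the median was 0.027, or 0.15 without KO replicate 3. Atg4b, the protease that trims ATG8 proteins before they are fixed, had the smallest p (-0.36 ± 0.17, SE, limma adjusted p = 0.490), and its KO arrays all lay below WT. Atg12 lay above WT on all KO arrays, with 0.28 ± 0.18 (adjusted p = 0.579). Of the 10, 1 thus lay above WT with no overlap and 1 below, where 10.1% and 8.1% of all genes did.

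Map1lc3b encodes LC3B, the ATG8 protein most used as a marker of autophagosomes, and lies on chromosome 8 with 17 protein-coding genes between it and Usp10 in the RefSeq table. It stood at 2.22, 2.20 and 3.11 on the KO arrays, against 3.14, 2.17 and 2.32 on the WT arrays. One array of each genotype was high, KO replicate 3 and WT replicate 1, and these 2 made up scan 2. The log2 difference between the genotypes was -0.033 ± 0.34 (SE, 95% interval -0.84 to 0.77, limma adjusted p = 0.979), with -0.032 within scan 1 and -0.034 within scan 2. Against WT replicate 3 alone, which was on scan 1, it was 0.19.

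This probe was printed at 10 spots on each array, of which 9 or 10 were kept, and the spots show how exact a single array was. Their SD lay between 0.030 and 0.051 on every array. The lowest spot of scan 2 stood at 3.06 and the highest of scan 1 at 2.38. In the fit with scan as a block the scan 2 arrays were higher by 0.89 ± 0.13 (SE, limma adjusted p = 0.0132), and 9.44% of all genes differed between the scans by that test. Map1lc3b was the 1 member of the 10 that did. With that term in the fit, the SE of its genotype difference was 0.13 in place of 0.34. Why the scans differ was not tested, and scan and the animals on each scan cannot be told apart.

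**Figure D3:**
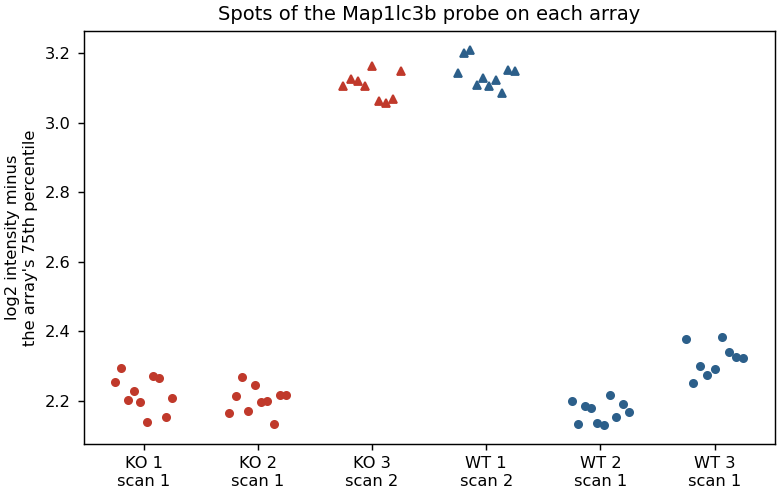
Level of each kept spot of the Map1lc3b probe on each array, as log2 intensity minus the array's 75th percentile, KO arrays left of WT arrays. Circles are scan 1 and triangles scan 2. The spots of 1 array lie close together, and the 2 arrays of scan 2, 1 of each genotype, lie apart from the other 4.

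Gabarapl1 encodes an ATG8 protein of the GABARAP branch, known in muscle as a FOXO target. It stood at 4.73, 5.03 and 5.15 on the KO arrays, against 4.49, 4.47 and 3.82 on the WT arrays. The KO arrays all lay above the WT arrays, with WT replicate 3 well below the other two. Its level was 1.64-fold that of WT, a log2 difference of 0.71 ± 0.24 (SE, 95% interval 0.16 to 1.27), the largest of the 10 members, which did not pass over all genes (limma unadjusted p = 0.0188, adjusted p = 0.423). By p it ranked 934 among the 21207 genes. The difference was 0.73 within scan 1 and 0.67 within scan 2, with an unadjusted p of 0.0113 and an adjusted p of 0.222 with scan as a block. It was 0.49 without WT replicate 3 and 1.15 against WT replicate 3 alone (adjusted p = 0.517). After quantile normalisation it was 0.57 (limma unadjusted p = 0.0637). With normexp background correction and quantile normalisation it was also 0.57 (limma unadjusted p = 0.0924), so the unadjusted p under 0.05 depended on the scaling. It was positive in all 19 alternative settings and past the adjusted threshold in none of them.
The last 120 bases before its annotated start, at chr6:129533072-129533191 on the plus strand (RefSeq, GRCm38.p6), are shown as the promoter of the member with the largest difference.
Gabarapl1: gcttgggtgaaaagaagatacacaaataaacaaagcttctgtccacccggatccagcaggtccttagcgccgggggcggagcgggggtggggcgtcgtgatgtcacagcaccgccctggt

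The 3 other ATG8 genes were measured as well. Gabarapl2 differed by 0.19 ± 0.18 (SE, limma adjusted p = 0.686) and Gabarap by -0.076 ± 0.26 (adjusted p = 0.925). With Map1lc3a and Map1lc3b the median of the 5 was 0.016, and between -0.050 and 0.19 with 1 array left out. Whether the difference of Gabarapl1 was unlike that of its relatives was not tested.

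**Figure D4:**
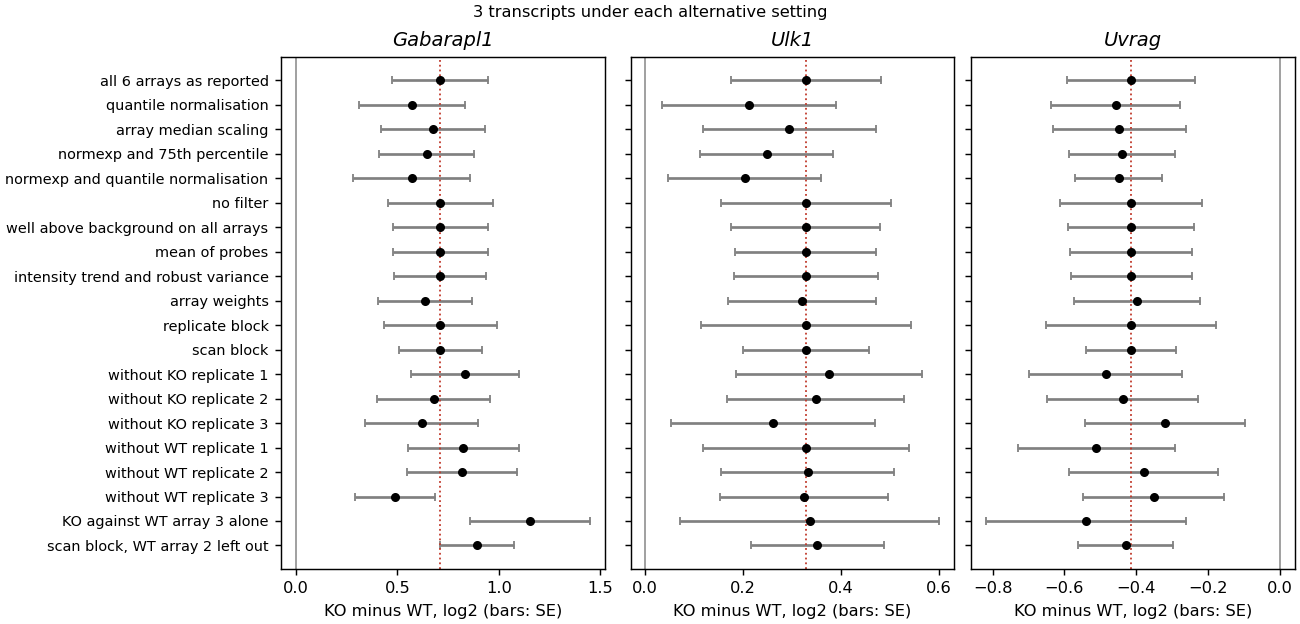
Log2 difference, KO minus WT, of Gabarapl1, Ulk1 and Uvrag over all 6 arrays and under each of 19 alternative settings, with bars for the SE. The dotted line marks the reported value. The sign holds in every setting for each of these 3, and no setting brought an adjusted p under 0.05.

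Genes that act before and after this core were read from further autophagy lists, and no gene of these lists passed over all genes, with or without scan as a block. Among proteins of the growing membrane, 1 of 11 measured genes had an unadjusted p under 0.05, close to the 10.4% of all genes. This was Atg9a, a lipid scramblase carried on vesicles, which stood at -2.996, -2.64 and -1.78 on the KO arrays, against -3.26, -3.27 and -3.28 on the WT arrays. The groups did not overlap, and KO replicate 3 stood highest (0.79 ± 0.30, SE, limma adjusted p = 0.458, with 0.45 within scan 1 and 1.47 within scan 2). Of the 11 genes 2 lay above WT with no overlap and 0 below, where 10.1% and 8.1% of all genes did. Atg9b stood at 0.028 on KO replicate 2 and between -3.80 and -2.65 on the other 5 arrays (adjusted p = 0.630). Atg2b, a lipid transfer protein, differed by 0.49 ± 0.23 (adjusted p = 0.501). The list's median was 0.12, and between 0.054 and 0.19 with 1 array left out.

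Of 13 measured cargo receptors 2 had an unadjusted p under 0.05, both above WT on all KO arrays, where 10.4% of all genes had such a p. Of the 13, 3 lay above WT with no overlap and 0 below, where 10.1% and 8.1% of all genes did. Retreg1, which encodes FAM134B, a receptor that feeds endoplasmic reticulum into autophagosomes, stood at -1.24, -1.38 and -1.25 on the KO arrays, against -2.09, -2.44 and -2.02 on the WT arrays. The groups were well apart, with a log2 difference of 0.90 ± 0.18 (SE, limma adjusted p = 0.182, and 0.104 with scan as a block). Ncoa4, the receptor that delivers ferritin for degradation, differed by 0.71 ± 0.25 (adjusted p = 0.437), with KO replicate 1 at 3.43 close to WT replicate 1 at 3.38. The 13 differences ran from -0.54 to 0.90, with 6 positive and 7 negative, and their median was -0.014. It was -0.093 without WT replicate 1 and 0.090 without KO replicate 3.

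Among the genes of autophagosome and lysosome fusion 1 of 13 had an unadjusted p under 0.05, Vps41 of the HOPS tethering complex (-0.47 ± 0.20, SE, limma adjusted p = 0.476). Among lysosomal genes it was 1 of 17, Atp6v0d1, a subunit of the proton pump (-0.68 ± 0.25, adjusted p = 0.444). Neither share exceeds the 10.4% of all genes with such a p. Both lay below WT on every KO array. Of the 13 fusion genes 1 lay above WT with no overlap and 1 below. Of the 17 lysosomal genes it was 1 above and 2 below, where 10.1% and 8.1% of all genes did so. The medians of the lists were 0.065 and 0.047, and lay between 0.017 and 0.15 and between 0.0029 and 0.070 with 1 array left out. Of the transcription factors 6 of 7 were measured, with Foxo4 not well above background on any array. None had an unadjusted p under 0.05, and the median was -0.17, or -0.31 when KO replicate 2 was left out and -0.020 under normexp background correction scaled to the 75th percentile. The differences were -0.26 ± 0.15 for Foxo1 (adjusted p = 0.555), -0.34 ± 0.21 for Tfeb (adjusted p = 0.565) and 0.74 ± 0.38 for Mitf (adjusted p = 0.519).

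Genes whose proteins bind or modify Beclin 1 had 3 of 16 members with an unadjusted p under 0.05, one of them Usp10 itself, where 10.4% of all genes had such a p. Of the 16, 4 lay above WT with no overlap and 1 below, where 10.1% and 8.1% of all genes did. Beside Usp10, those with such a p were Tnfaip3, which encodes A20, an enzyme that removes ubiquitin from Beclin 1, and Bcl2l1, which encodes BCL-XL, an inhibitor that holds Beclin 1. Tnfaip3 stood at 0.019, 0.72 and 0.66 on the KO arrays, against -0.18, -0.32 and -0.65 on the WT arrays (0.85 ± 0.24, SE, limma adjusted p = 0.374). Bcl2l1 stood at 3.82, 4.09 and 4.17 on the KO arrays, against 3.69, 3.71 and 3.31 on the WT arrays (0.46 ± 0.19, adjusted p = 0.473). Both were above WT on all KO arrays, while Bad, whose protein can release Beclin 1 from BCL-XL, was below WT on all of them (-0.38 ± 0.16, adjusted p = 0.481). The median of the 16 was 0.030, and between 0.0027 and 0.093 with 1 array left out.

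**Figure D5:**
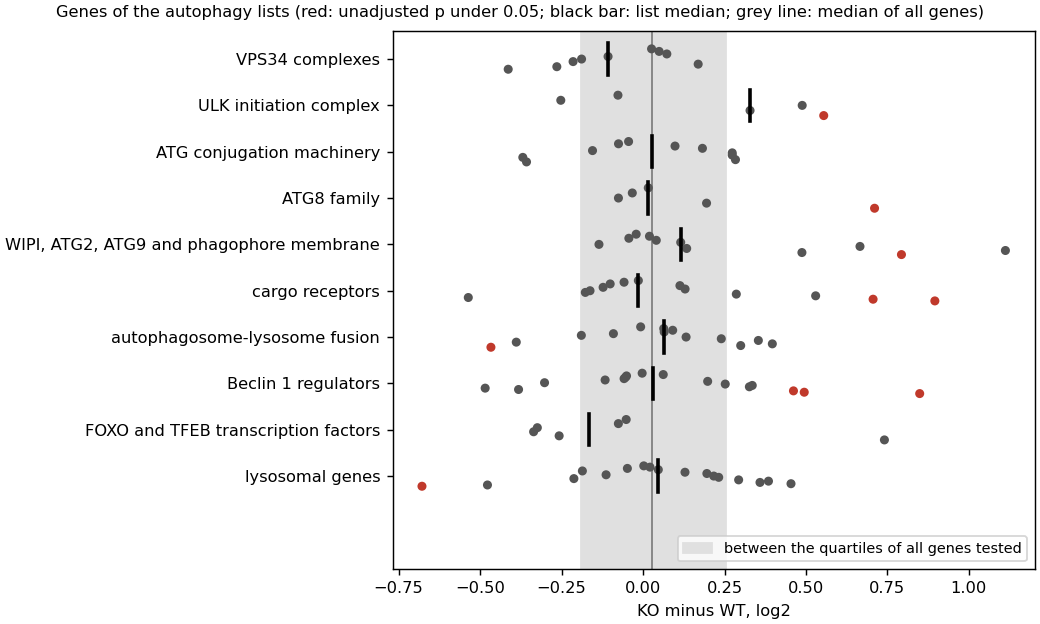
Log2 difference, KO minus WT, of every measured gene of 10 autophagy lists, 1 point per gene. Red points have an unadjusted p under 0.05, black bars are list medians, the grey line is the median of all genes tested and the grey band runs between their quartiles. Each list has points on both sides of 0, and no point passed the adjusted threshold.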

How the data were processed

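The members and lists were chosen with earlier results of these data known. The deposited intensity of each spot is Agilent Feature Extraction output, a linear value with background taken off and no scaling across arrays, per the file headers (version 11.0.1.1; 9.1 per the submitters' processing notes). Of 44397 spots per array 1377 controls were left out. No spot was saturated, and 64.4% to 73.9% of the others were well above background. Spots with an outlier flag were removed, log2 was taken of the deposited intensity, each array's 75th percentile was taken off, and repeat spots were averaged per probe. Probes were named through a RefSeq table (GRCm38.p6), 27234 of 39429. The array design names mm9, so coordinates are given for promoters alone, from that table. Probes were kept where every array of 1 group was well above background (at least 0.5 of the spots), and the brightest stood for its gene. KO was compared with WT by limma 3.58.1 in R 4.3.3 (lmFit, eBayes, two-sided, Benjamini-Hochberg over 21207 genes). The fit was checked on simulated data whose planted differences were all larger than any difference of the members. That check does not cover differences of the members' size, and it required recovery only with scan as a block. Named were Usp10, all members, up to 4 genes per autophagy list with the smallest p, and marker genes beside a result. Alternatives were other scalings, normexp with an offset of 50 on the median signal, other filters and probe rules, other variance models, blocks, and leaving out arrays. A block with WT replicate 2 left out was added after the data were seen. Samples are separate neonates per the design text.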

Additional observations from a re-analysis of the deposited data

How the results depend on the processing

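The count of 0 members past the adjusted threshold held in every setting run. At an unadjusted p under 0.05 by limma it was 1 in the reported fit. That count ranged from 0 without KO replicate 3 to 3 with the scan block, and was 2 with array median scaling. The count of all genes past the threshold was 17. It was 0 with normexp and quantile normalisation, no filter, the replicate block, the KO arrays against WT replicate 3 alone and the scan block without WT replicate 2, with 2245, 2052, 1609, 2009 and 5130 genes by limma before adjustment. It was 1 with probes well above background on all arrays, 8 with the mean of probes, 45 with an intensity trend, 36 with array weights, 62 with the scan block, 27 for every probe on its own and 2202 at an unadjusted p under 0.05, and between 0 and 30 with 1 array left out. The cause was not tested.

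The median difference of the members was 0.074 and lay between -0.0042 and 0.12 with 1 array left out. It was 0.0063 against WT replicate 3 alone and 0.0041 with the scan block without WT replicate 2. The sign turned for 3 members whose differences were near 0. With 1 array left out Atg14 lay between -0.082 and 0.16, Map1lc3b between -0.33 and 0.27 and Wipi1 between -0.12 and 0.35. Atg14 was -0.082 without KO replicate 1, -0.047 without WT replicate 1, -0.18 against WT replicate 3 alone and -0.013 with the scan block without WT replicate 2. Map1lc3b was 0.11 and 0.12 without KO replicates 1 and 2, 0.27 without WT replicate 1 and 0.19 against WT replicate 3 alone, and each of these leaves the scans unbalanced between the genotypes. Wipi1 was -0.12 without WT replicate 1 and -0.36 against WT replicate 3 alone. The other 7 members kept their sign in all 19 settings. With normexp and the 75th percentile the median of all genes was 0.14. Deviations of KO and WT arrays with the same replicate number correlated at -0.40, 0.48 and -0.60, and only the pair at 0.48 shared a scan. KO replicate 3 and WT replicate 1, both of scan 2, correlated at 0.89. Deviations within a group are tied to one another, and scan and the animals on each scan cannot be told apart. Whether the replicate numbers pair the samples cannot be told from these values. With the replicate block the difference of Gabarapl1 was 0.71 (limma adjusted p = 0.632). Limits are the 3 arrays a group, the 2 WT arrays that went against the label male, and the 2 scans.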

Other observations

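Becn1 and Pik3c3, whose proteins form the core of the VPS34 complexes, had the highest Pearson r of the 45 pairs among the 10 members (r = 0.98 over 6 arrays, with a Spearman rho of 0.89). By rho, Gabarapl1 with Atg7 and Ulk1 with Gabarapl1 stood higher (0.94 each). Without the 2 arrays farthest from the Becn1 median the r of Becn1 and Pik3c3 was 0.97 over 4 arrays. Atg5 ran opposite to Becn1 (r = -0.97, rho = -0.94). The median r of the 45 pairs was -0.049, and all pairs share the same 6 arrays and their scaling. Among 14502 other named genes, the 3 most like Becn1 over the 6 arrays were Emc1 (r = 0.996, rho = 0.94), Bbs5 (r = 0.995, rho = 0.94) and Cul4a (r = 0.990, rho = 0.94). They were picked as the highest, so these values describe the arrays and carry no test. The r takes no account of the size of a change. Bbs5 ran only from -0.25 on WT replicate 2 to -0.18 on WT replicate 3, while Becn1 ran from -1.13 to -0.25 on the same arrays.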
